A study of Mus musculus with 12 samples.

Results

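Small RNA libraries from the hippocampus of untreated mice (NT) were compared with libraries made 3 h after electroconvulsive shock (ECS), a current passed through the head that drives synchronous firing of neurons and a seizure. These 4 libraries, out of 12 in the series, were taken by their labels as NT-1, 3h-1, NT-2 and 3h-2, in which the suffix is the replicate number and marks 1 of 2 time courses. Within each time course the 3 h library was set against the untreated one, and the 2 pairs were read side by side, so that miRNAs that moved in both could be separated from those that moved in a single pair. The unit was the miRNA arm, the 5′ or 3′ strand of a hairpin precursor. Of 1063 arms with a count in any library, 469 arms of 328 miRNAs had 10 or more counts in at least 2 of the 12 libraries and entered the comparison.

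Each library came from an individual male mouse of 6 to 8 weeks, and the strain is labelled C57BL/6NCrl in both groups. The untreated mice received no shock. The other 8 libraries (0.5, 1, 6 and 24 h after ECS) were used to estimate the spread, and those of 1 and 6 h also served as a second reference. Whole hippocampus was extracted, so neurons, glia, vessels and any adhering choroid plexus were read together, and fewer cells of a type cannot be told apart from less of a miRNA per cell.

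A miRNA is cut from a hairpin transcript first by Drosha in the nucleus and then by Dicer in the cytoplasm. Of the resulting duplex, usually 1 strand is loaded into an Argonaute protein and the other is degraded. Bases 2 to 8 of the loaded strand, the seed, pair with sites in the 3′ UTRs of messenger RNAs and lower their translation and stability. Several miRNAs of the hippocampus, among them miR-132, miR-212 and miR-134, are known from work on synaptic activity and dendritic spines.

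The mature sequences of the arms that carry the comparison are given here from RefSeq (GRCm38.p6), with the seed in capitals. The first set holds the let-7 arms that were higher after ECS in both pairs, followed by let-7f and let-7g, the most abundant members. All of them share 1 seed.
let-7b-5p: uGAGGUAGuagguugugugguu
let-7c-5p: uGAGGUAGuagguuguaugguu
let-7e-5p: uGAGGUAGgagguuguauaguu
let-7i-5p: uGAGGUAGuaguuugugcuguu
let-7f-5p: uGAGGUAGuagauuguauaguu
let-7g-5p: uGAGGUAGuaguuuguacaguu
The second set holds other arms that were higher in both pairs. A close relative with the same seed stands under miR-221-3p and under miR-103-3p, since in each case the relative did not move with it in the second pair.
miR-9-5p: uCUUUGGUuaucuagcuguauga
miR-221-3p: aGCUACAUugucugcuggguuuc
miR-222-3p: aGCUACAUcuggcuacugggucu
miR-103-3p: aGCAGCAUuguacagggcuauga
miR-107-3p: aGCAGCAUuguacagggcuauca
miR-206-3p: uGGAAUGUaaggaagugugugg
miR-129-3p: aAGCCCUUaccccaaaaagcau
The third set holds arms that were lower in both pairs.
miR-448-3p: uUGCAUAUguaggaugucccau
miR-144-3p: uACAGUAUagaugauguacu
miR-872-3p: uGAACUAUugcaguagccuccu
miR-551b-3p: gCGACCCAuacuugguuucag
The last set holds arms whose change rested on 1 library, with miR-181a-5p beside its relative of the same seed.
miR-344f-3p: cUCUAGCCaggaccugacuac
miR-708-3p: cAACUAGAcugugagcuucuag
miR-488-3p: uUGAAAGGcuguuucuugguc
miR-181b-5p: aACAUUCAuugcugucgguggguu
miR-181a-5p: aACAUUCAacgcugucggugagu
RefSeq sequences were found for 52 of the 64 arms looked up.

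The libraries differed in ways other than treatment. Accepted reads numbered 3674297 in NT-1, 4922040 in 3h-1, 7574743 in NT-2 and 7601772 in 3h-2, and 29.05%, 30.5%, 56.53% and 54.55% of them matched miRNA hairpins. In NT-1, 51.4% of the miRNA reads were only 18 or 19 nt long (Wilson 95% interval 51.3% to 51.5%), against 13.8% in 3h-1 (13.8% to 13.9%), 1.69% in NT-2 (1.68% to 1.70%) and 0.910% in 3h-2 (0.901% to 0.920%). These intervals cover counting error only, as the reads were amplified without molecular identifiers. NT-1 lay 2-fold beyond the range of the other 5 libraries of its time course in 101 of the 469 arms, compared with 37 arms for 3h-1, 5 for NT-2 and 7 for 3h-2. The log2 levels of 271 arms with 10 counts in all 4 libraries correlated better within a time course (Pearson's r 0.857 for NT-1 with 3h-1 and 0.964 for NT-2 with 3h-2) than within a condition (0.804 for the untreated and 0.774 for the 3 h libraries). These are correlations across arms, which are not independent replicates. The replicate number of the untreated libraries carries a doubt, as the library composition given in the study has the larger miRNA total under NT-1 and the deposited files have it under NT-2, and the labels were followed here. By the same correlation NT-1 lay closer to the 5 other libraries of the first time course (r 0.837 to 0.92) than to those of the second (0.745 to 0.775), and NT-2 had a median r of 0.894 with the first and 0.964 with the second. The longest tags of NT-1, however, were 34 nt as in the second time course, against 30 nt in the rest of the first. Exchanging the 2 untreated libraries gave 16 arms higher and 8 lower in both pairs, and 7 and 3 of these were shared with the pairs as labelled. Whether the 3 h libraries overlap the untreated ones does not depend on this number.

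**Figure D1:**
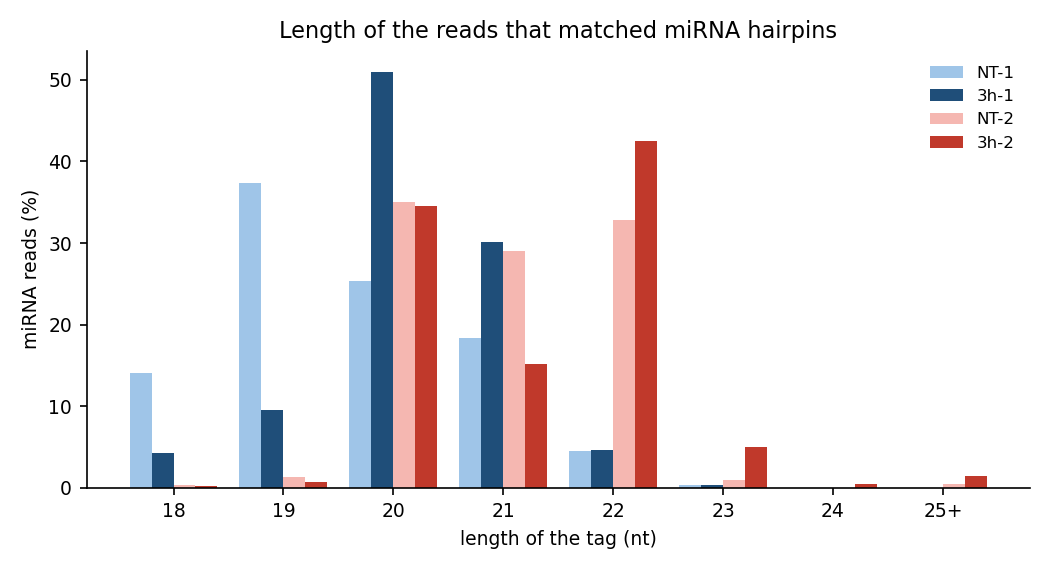
Share of miRNA reads by tag length in nt (x axis) in percent (y axis) for the 4 libraries, with 1 bar per library at each length. NT-1 peaks at 19 nt with 37.4% of its reads, 3h-1 at 20 nt with 51.0%, and the second time course carries its reads at 20 to 22 nt.

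Levels are given as counts per 1000000 miRNA counts scaled by the trimmed mean of M values (TMM) over all 12 libraries, called CPM below. This scaling sets the median log2 ratio of 3 h to untreated near 0, at -0.0035 in the first pair and 0.18 in the second. Scaled by the total miRNA count alone the medians were -0.80 and -0.22. Relative to the total count, TMM raised the log2 ratios by 0.82 in the first pair and by 0.45 in the second. Through the prior count, arms with few counts shifted less. Each change is therefore stated relative to the bulk of arms.

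With all 12 libraries in 1 fit, time and time course as terms and edgeR's quasi-likelihood test, no arm differed between 3 h and untreated at an adjusted p of 0.05 (0 of 469, 0%; smallest adjusted p 0.568). The unadjusted p was under 0.05 in 24 arms (5.12%), 15 of them higher (3.2%) and 9 lower (1.92%). Without the term for the time course edgeR also called 0 arms, with 10 at an unadjusted p under 0.05. DESeq2 with the same terms called 5 arms (1.07%), miR-1934-3p, miR-344f-3p, miR-206-3p, miR-708-3p and miR-664-5p, all higher, and had 48 arms (10.2%) at an unadjusted p under 0.05. Each of these 5 rested mainly on 1 of the 3 h libraries, as described below.

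The 2 pairs moved largely in different arms. An arm was said to move when its CPM changed at least 2-fold (with a prior count of 2). In the first pair 124 arms were higher by this measure (26.4%) and 132 lower (28.1%), and in the second pair 84 were higher (17.9%) and 40 lower (8.53%). Both pairs moved upward in 23 arms (4.9%) and downward in 15 (3.2%), and in opposite ways in 36 (7.68%). With DESeq2 size factors 23 were higher and 17 lower in both (3.62%), but with the total count only 7 were higher (1.49%) and 42 lower (8.96%). In 182 arms (38.8%) only the first pair moved, in 50 (10.7%) only the second, and in 163 (34.8%) neither. The direction was shared by 214 arms (45.6%). In the first pair 216 arms had a ratio above 0 and 235 below, and the rest, at 0, could share no direction. Over the 469 arms the log2 ratios of the pairs had a Pearson's r of -0.0016 and a Spearman's rho of -0.011. The first pair was also the wider of the 2, with a median absolute log2 ratio of 1.20 against 0.60.

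**Figure D2:**
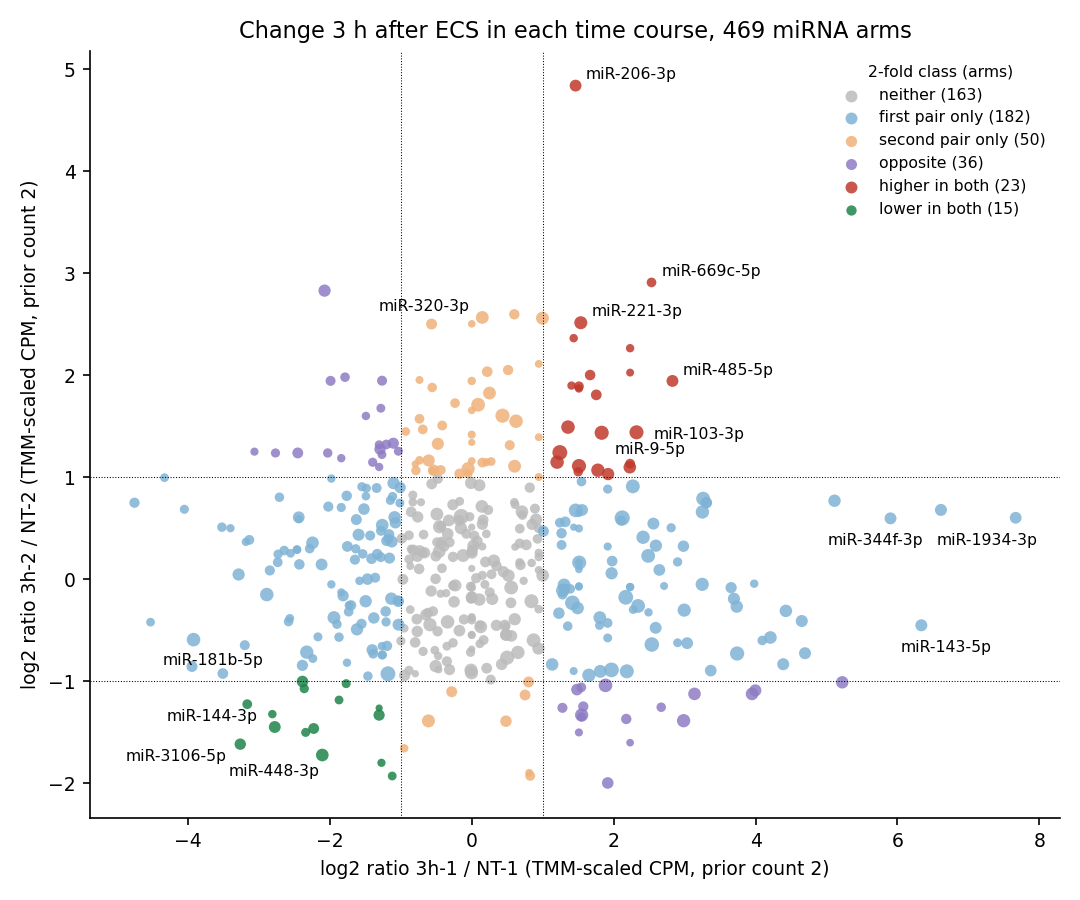
Log2 ratio of 3 h to untreated in the first time course (x axis) against that in the second (y axis), 1 point per arm for 469 arms, with lines at a 2-fold change. The cloud is broad along the x axis and shows no slope, 23 arms lie in the upper right corner and 15 in the lower left, and miR-1934-3p and miR-344f-3p lie far right with little change in the second pair.

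Of the 38 arms that moved in both pairs, 21 (55.3%) also had both 3 h libraries outside the range of the untreated ones, 13 above and 8 below. As the 38 were chosen by the same 4 libraries, this share is not independent of the choice. NT-1 lay 2-fold apart from the other 5 libraries of its time course in 7 of the 23 higher and 7 of the 15 lower arms, among them miR-485-5p, miR-103-3p, miR-448-3p and miR-3106-5p. Over all 469 arms the 3 h libraries lay above both untreated libraries in 37 (7.89%) and below both in 32 (6.82%). Among the 23 arms that were higher, 17 were 5′ arms and 6 were 3′ arms, and among the 15 lower 6 and 9. All 469 arms comprised 243 5′ arms and 226 3′ arms, and 4 of the 17 were let-7 arms. The median level over the 4 libraries was 369 CPM for the higher arms and 9.48 CPM for the lower ones. That level includes the 3 h libraries by which the arms were classed, so it is not independent of the class. The same holds for a minimum set on it. The median higher arm was miR-206-3p, whose level came mainly from 3h-2 (1390 CPM). Taking arms of 100 CPM or more alone, 12 of 180 were higher in both pairs (6.67%) and 5 lower (2.78%).

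The let-7 family, long known for marking differentiated cells and for repressing growth genes, supplied 4 of these 12 arms. The level of let-7c-5p was 17235 CPM in NT-1 and 40759 in 3h-1, and 75310 in NT-2 and 178450 in 3h-2, which is a log2 ratio of 1.24 in both pairs. The time courses lay so far apart that 3h-1 stayed below NT-2. For let-7i-5p the values were 3875 and 11048 CPM in the first pair and 18115 and 39157 CPM in the second, with ratios of 1.51 and 1.11, and here too the groups overlapped. The groups were apart for let-7b-5p, at 2458 and 4224 CPM untreated against 6295 and 11899 CPM at 3 h, and for let-7e-5p, at 3979 and 2528 CPM against 9161 and 5613 CPM. Their fitted log2 changes in edgeR were 1.43 (SE 0.69) and 1.18 (SE 0.70), neither of which passed the test (adjusted p 0.746 for both). With the total count none of the 4 arms was 2-fold higher in both pairs. The log2 ratios were then 0.42 and 0.79 for let-7c-5p and 0.69 and 0.66 for let-7i-5p. They were 0.53 and 1.04 for let-7b-5p and 0.38 and 0.70 for let-7e-5p. Let-7b and 1 copy of let-7c are neighbours in the exons of Lncppara on chromosome 15 (GRCm38, chr15:85707319-85707403 and chr15:85706603-85706697, plus strand), let-7e lies in an intron of Spaca6 (chr17:17830352-17830444, plus strand) and let-7i in D630033A02Rik (chr10:122985640-122985724, minus strand).

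The remaining members were less even. The level of let-7f-5p stayed under 2-fold, at 67415 and 60848 CPM in the first pair and 220350 and 337800 CPM in the second. That of let-7g-5p went from 10779 to 46878 CPM and from 204830 to 311050 CPM, so that only the first pair passed 2-fold. All 9 let-7 5′ arms were higher at 3 h in the second pair under each of 3 scalings, whereas in the first pair 7 of 9 were higher with TMM or DESeq2 size factors and 5 of 9 with the total count. Their median log2 ratio was 1.20 in the first pair and 1.15 in the second, beside -0.0035 and 0.18 over all arms, and none passed the test. As a plain share of miRNA reads the 9 arms made up 17.4% of NT-1 (Wilson 95% interval 17.3% to 17.4%) and 16.02% of 3h-1 (15.96% to 16.08%), which is lower after ECS, and 49.7% of NT-2 (49.7% to 49.8%) and 63.0% of 3h-2 (63.0% to 63.1%), which is higher. The 3′ arms of the same hairpins were scarce, and all 7 measured were lower in the second pair (median log2 ratio -0.90) under the 3 scalings. In the first pair 3 of those 7 were higher and 4 lower with TMM and with the total count, and 5 were higher with DESeq2 size factors.

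MiR-9-5p, a brain-enriched miRNA of neural progenitors and neurons, was the most abundant arm outside let-7 that moved up in both pairs. It measured 9298 CPM in NT-1, 33090 in 3h-1, 8413 in NT-2 and 22801 in 3h-2, so that both 3 h libraries stood above both untreated ones. The log2 ratios were 1.83 and 1.44, and the edgeR estimate was 1.62 (SE 0.73, adjusted p 0.746). With the total count the ratios were 1.01 and 0.99. With TMM and with size factors, though not with the total count, 3 h was the highest of the 6 time points in each time course, and the libraries of 1 and 6 h held 8609 and 13201 CPM in the first and 15548 and 8911 CPM in the second. The opposite strand, miR-9-3p, did not move, at 387 and 417 CPM in the first pair and 1662 and 1450 CPM in the second. The arm is shared by 3 hairpins, in Gm3764 on chromosome 3 (chr3:88215598-88215686), in C130071C03Rik on chromosome 13 (chr13:83738814-83738885) and in Mir9-3hg on chromosome 7 (chr7:79505264-79505353), and its reads cannot be assigned to any of them.

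MiR-485-5p, from the large imprinted miR-379/410 cluster of chromosome 12, had the largest shared upward ratio among arms of 100 CPM or more when the smaller of the 2 ratios was used for ranking. It measured 76.7 CPM in NT-1 and 550 in 3h-1, and 175 CPM in NT-2 and 678 in 3h-2, with log2 ratios of 2.83 and 1.95 and no overlap of the groups. EdgeR gave 2.35 (SE 0.88, adjusted p 0.746). Its 3 h libraries were not the highest, as 0.5h-2 held 1870 CPM. In 3h-1 a single tag that began 2 nt before the usual start made up 389 of 702 counts and was at 0 in NT-1. Without that tag the log2 ratios with TMM were 1.67 and 1.97, so both pairs stayed above 2-fold. In reads per 1000000 miRNA reads without TMM, a scale unlike the CPM above, the rest of the arm measured 115 in NT-1 and 209 in 3h-1. In the second time course these values were 157 and 450. The opposite strand, miR-485-3p, stood at 256 CPM in both NT-1 and 3h-1, and at 950 and 842 CPM in NT-2 and 3h-2.

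MiR-221-3p is widely expressed in proliferating and vascular cells and is transcribed with miR-222 from the X chromosome (chrX:19146294-19146388, minus strand). Its level was 931 CPM in NT-1 and 2704 in 3h-1, and 951 CPM in NT-2 and 5448 in 3h-2. The groups did not overlap, and the ratios were 1.54 and 2.52. MiR-222-3p, which carries the same seed and lies beside it (chrX:19146893-19146971), went from 1476 to 3640 CPM in the first pair but from 1839 to 1771 CPM in the second. MiR-103-3p, encoded in introns of the pantothenate kinase genes Pank3 and Pank2, measured 1945 and 9731 CPM in the first pair and 14157 and 38486 CPM in the second. MiR-107-3p, which differs from it only near the 3′ end and shares its shorter reads, measured 1690 and 9473 CPM and then 13577 and 15938 CPM. In 3h-2 the largest miR-103-3p tag was the full 23 nt with 61883 counts, whereas in the other 3 libraries it was a 21 nt tag that both miRNAs share.

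Other arms of this group were miR-129-3p, a neuronal miRNA, at 205 and 964 CPM in the first pair and 1207 and 2589 CPM in the second. MiR-34c-5p, known from ciliated epithelium and hippocampus, measured 2602 and 8927 CPM, then 1964 and 4129 CPM. MiR-100-5p measured 288 and 1094 CPM, then 527 and 1080 CPM. The last 2 arms fell outside the rule for naming and were added after their values were seen. The groups were apart for both, and overlapped for miR-129-3p.

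MiR-206-3p, a miRNA of skeletal muscle, was the arm of the group in which the pairs were least alike. Its counts were 16 in NT-1, 37 in 3h-1, 186 in NT-2 and 3845 in 3h-2, which is 9.97, 29.0, 47.7 and 1390 CPM. The second pair alone gave a log2 ratio of 4.84, the first 1.46. DESeq2 called the arm (adjusted p 0.0151) and edgeR did not (log2 change 4.32, SE 1.37, adjusted p 0.746). When 3h-2 was left out the estimate was 0.14. No other muscle arm in the comparison moved 2-fold in both pairs. MiR-1a-3p, the main part of the muscle list, was at 1706, 8666, 18486 and 15441 CPM. Its ratios were 2.34 and -0.26, so it was higher with miR-206-3p in the first pair only. MiR-133a was at 5, 2, 9 and 16 counts and miR-133b at 0, 0, 1 and 2.

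**Figure D3:**
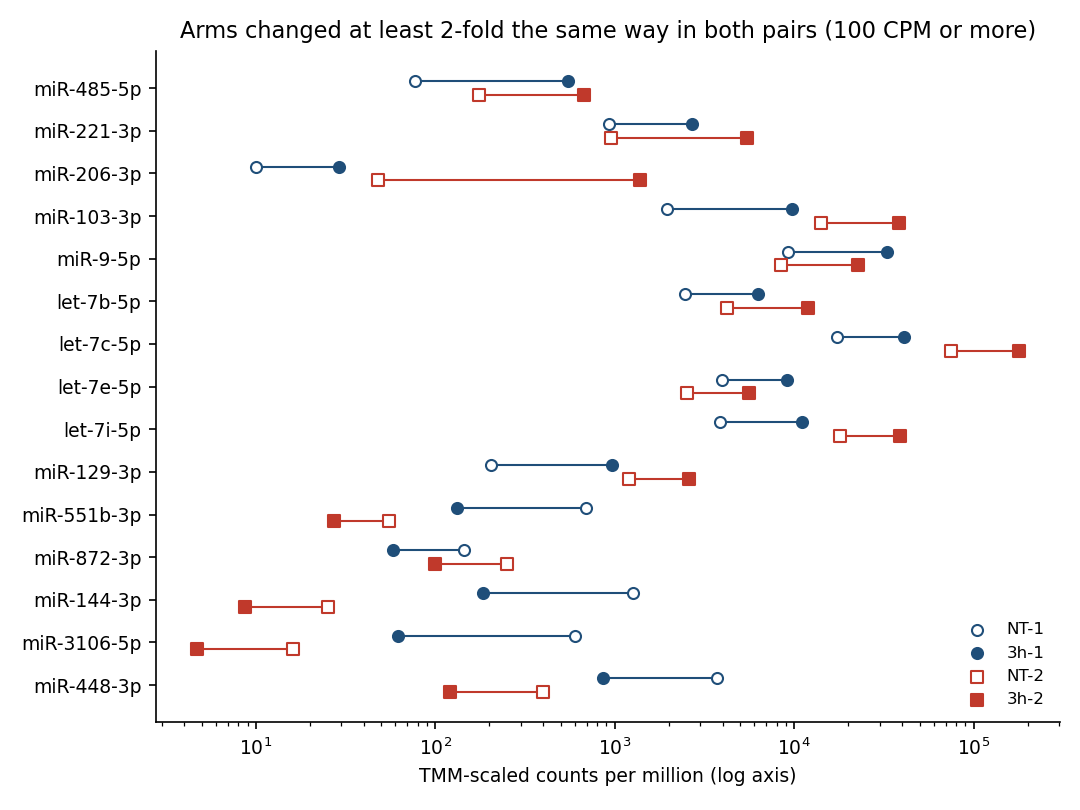
Level in CPM (log axis) of the 10 higher and 5 lower named arms that moved at least 2-fold the same way in both pairs, on the x axis, 1 arm per row, with a line joining NT to 3 h within each time course. Both lines of a row run the same way, while the distance between time courses can exceed the change, as for let-7c-5p.

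Of the 23 higher arms, 11 were under 100 CPM. Among these, miR-669c-5p had the largest ratio by the smaller of its 2 pairs (2.53 and 2.91), with 1.87 and 14.9 CPM in the first pair and 5.12 and 44.1 CPM in the second (3, 19, 20 and 122 counts). The groups were apart, and edgeR gave 3.01 (SE 0.84, adjusted p 0.568). A count of 0 in a library occurred in 5 of the 23, which allows up to 3 counts. The erythrocyte miRNA miR-451a-5p had 5 and 15 counts in the first pair and 147 and 425 in the second.

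At 100 CPM or more, 5 arms were lower at 3 h in both pairs. MiR-448-3p, from an intron of the serotonin receptor gene Htr2c (chrX:147158210-147158321, plus strand), was at 3709 CPM in NT-1 and 860 in 3h-1, and at 399 CPM in NT-2 and 120 in 3h-2. Of its 5949 counts in NT-1, 3955 came from a single 19 nt tag, and without NT-1 the edgeR estimate turned from -2.06 (SE 1.37) to 0.67. Other hairpins of the same gene did not share a pattern. MiR-1912-3p was lower in both pairs, at 63.0 and 6.27 CPM and then 2.82 and 0.723 CPM, whereas miR-1298-5p was at 471 and 4155 CPM and then 24.6 and 10.8 CPM, in opposite directions.

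MiR-144-3p, a miRNA of red blood cells, was at 1272 and 185 CPM in the first pair and at 25.1 and 8.68 CPM in the second. MiR-3106-5p was at 602 and 61.9 CPM, then at 16.1 and 4.70 CPM, which in 3h-2 was 13 counts. MiR-551b-3p, from an intron of Egfem1 (chr3:29416823-29416920, plus strand), was at 696 and 132 CPM, then at 55.1 and 27.1 CPM. For all 3 the level of 3h-1 exceeded that of NT-2, so the groups overlapped. MiR-872-3p, from an intron of Ift74 (chr4:94665157-94665237, plus strand), was the only one of the 5 whose groups were apart, at 145 and 252 CPM untreated against 58.0 and 99.8 CPM at 3 h. The log2 ratios of miR-872-3p were -1.31 and -1.33, and edgeR gave -1.33 (SE 0.96, adjusted p 0.825).

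The libraries of 1 and 6 h allowed the 3 h libraries to be read without the untreated ones. Against the mean of 1 and 6 h, edgeR called 0 of 469 arms (0%), with 21 at an unadjusted p under 0.05 (4.48%), all of them higher, and DESeq2 called 10 (2.13%). In both time courses 24 arms were at least 2-fold above this mean (5.12%) and 6 below (1.28%). Against both references and in both time courses, 9 arms were 2-fold higher (1.92%), namely let-7b, let-7c and let-7i 5′ arms, miR-221-3p, miR-100-5p, miR-485-5p, miR-669c-5p, miR-365-5p and miR-27b-5p. For miR-485-5p this rested on 1 tag in the first time course, as its ratio there to 1 and 6 h was 1.05 with the tag of 389 counts and -0.0531 without it. Counts were few in the first pair for miR-365-5p (1 in NT-1 and 4 in 3h-1) and miR-27b-5p (0 and 4). MiR-144-3p and miR-551b-3p were the only arms 2-fold lower against both (0.426%). MiR-448-3p was not among them, as its ratios to 1 and 6 h were 0.57 and -1.71, nor was miR-206-3p, at 0.33 and 4.41. The 1 and 6 h comparison shares the 3 h libraries with the untreated one, so the 2 are not independent.

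Across the 6 time points, 20 arms had their highest level at 3 h in both time courses (4.26%) and 6 their lowest (1.28%). Of the 20 arms, 15 were among the 180 of 100 CPM or more, and these included let-7b, let-7e and let-7i 5′ arms, miR-9-5p, miR-99b-5p, miR-100-5p, miR-30a-5p, miR-30d-5p, miR-129-3p and miR-221-3p. Over all 469 arms 6 h had more, with 26 arms that peaked there in both time courses, and NT had 13, 0.5 h 7, 1 h 1 and 24 h 11. At 100 CPM or more, the number of arms with their peak in both time courses was 5 for NT, 1 for 0.5 h, 0 for 1 h, 4 for 6 h and 2 for 24 h. This minimum was a mean over the NT and 3 h libraries alone. Arms high at 3 h or untreated therefore passed it more readily, and these counts cannot be compared between time points. MiR-344f-3p, for example, passed through 3h-1 (1541.5 CPM), with 24.9 CPM in NT-1, 9.74 in NT-2 and 15.2 in 3h-2. The number of arms that peaked at 3 h also varied. The count depended on the scaling. With DESeq2 size factors 18 arms peaked at 3 h in both time courses, 15 of them shared with TMM. Let-7b-5p, let-7e-5p and miR-221-3p were not among the 18. With the total count 5 arms peaked at 3 h in both, namely let-7b-5p, let-7i-5p, miR-129-3p, miR-30d-5p and miR-344f-3p. This measure was chosen after the values were seen.

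**Figure D4:**
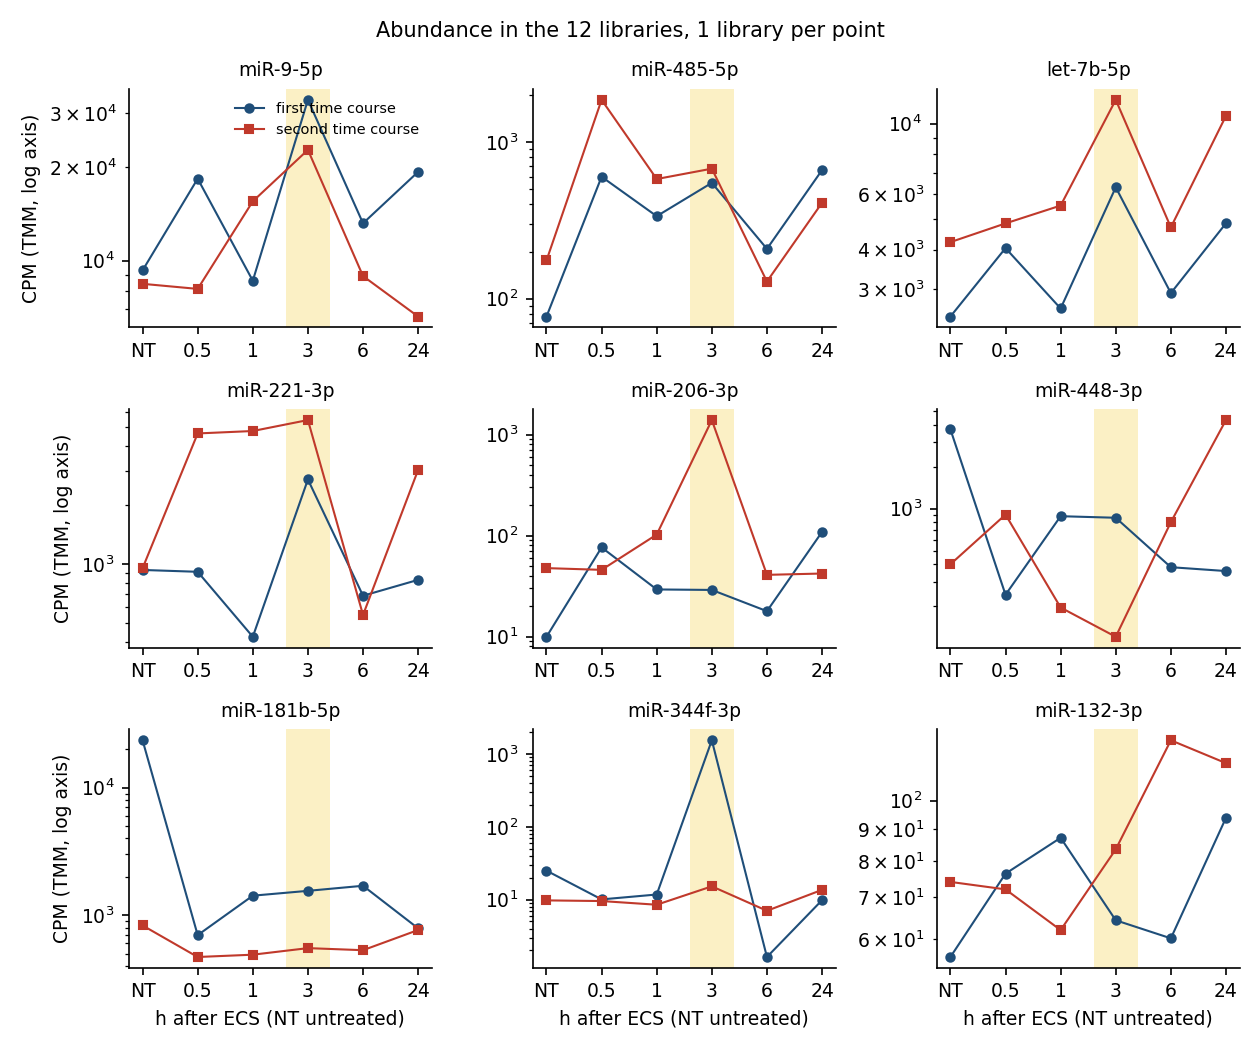
Level in CPM (y axis, log) of 9 arms at the 6 time points (x axis, h after ECS, NT first), 1 line per time course and 1 library per point. The lines of miR-9-5p have their maximum at 3 h in both time courses, while miR-344f-3p and miR-206-3p stand out at 3 h in only 1 of them.

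A larger number of arms moved in the first pair alone. Among arms of 100 CPM or more, 22 changed at least 4-fold in the first pair and less than 1.5-fold in the second, 18 higher and 4 lower, while 1 did so in the second pair alone. MiR-143-5p had 34 counts in NT-1, 2273 in 3h-1, 217 in NT-2 and 112 in 3h-2, with log2 ratios of 6.34 and -0.45. MiR-135a-3p (4.65 and -0.41), miR-488-3p (4.43 and -0.31), miR-30c-3p (4.21 and -0.57) and miR-323-3p (3.74 and -0.27) followed the same course. In miR-488-3p 3h-1 alone lay 2-fold beyond its time course. In miR-143-5p, miR-135a-3p and miR-30c-3p 3h-1 lay above and NT-1 below the rest of the time course, and in miR-323-3p only NT-1 lay apart, at 175 CPM, while 1h-1 held 1222 and 3h-1 2335 CPM. In 3h-1 a single 20 nt tag made up 4368 of 4422 counts of miR-488-3p and 1320 of 1346 of miR-135a-3p.

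The other 4 arms called by DESeq2 rested on 3h-1. MiR-1934-3p had 9 counts in NT-1, 1674 in 3h-1, 10 in NT-2 and 12 in 3h-2, and 1658 of the 1674 came from 1 tag of 18 nt, the shortest length deposited, that was at 0 in the other 3 libraries. DESeq2 gave an adjusted p of 9.78e-05 and edgeR one of 0.568. MiR-344f-3p, of a family of rodent hairpins on chromosome 7 (chr7:62046181-62046248, minus strand), had 40, 1967, 38 and 42 counts, and its adjusted p was 0.00207 in DESeq2 and 0.568 in edgeR. The changes of miR-708-3p (131, 3644, 849 and 1029 counts) and miR-664-5p (16, 1351, 1197 and 1362 counts) were large in the first pair, at 5.11 and 6.61, and small in the second, at 0.77 and 0.68. A 20 nt tag gave 3586 of the counts of miR-708-3p in 3h-1 and a 19 nt tag 1320 of those of miR-664-5p. In the second time course the main tags of both arms were 22 nt long.

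The reverse case was miR-181b-5p, a lymphocyte and brain miRNA. It had 37760 counts in NT-1, 1981 in 3h-1, 3243 in NT-2 and 1526 in 3h-2. A tag of 19 nt gave 35879 of the counts in NT-1 and 52 in 3h-1. The log2 ratios were -3.92 and -0.59, and with tags of 20 to 24 nt alone the edgeR estimate moved from -3.03 to -0.50. Of the 7 miR-181 arms, 6 were at least 2-fold lower in the first pair under the 3 scalings, beside 28.1% of all arms with TMM, 27.3% with size factors and 46.1% with the total count, while in the second pair 0 were with TMM or size factors and 1 was with the total count. In the second pair alone, miR-320-3p stood out with 3834 and 16136 counts against 128 and 113 in the first, which is a ratio of 2.57 against 0.15.

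The miRNAs best known from neuronal activity differed little or unevenly between 3 h and untreated. MiR-132-3p, induced through CREB in cultured neurons, measured 56.1 and 64.3 CPM in the first pair and 74.1 and 83.5 CPM in the second, and its log2 ratios of 0.19 and 0.17 became -0.62 and -0.27 with the total count. Its 5′ arm went from 267 to 184 CPM and from 125 to 263 CPM. MiR-212-3p, which shares a hairpin cluster (chr11:75173388-75173478 for miR-212, with miR-132 downstream) and a seed with miR-132-3p, was at 58.0 and 47.2 CPM untreated and at 17.2 and 39.4 CPM at 3 h, below both. The other arm, miR-212-5p, was at 269 and 320 CPM, then at 1363 and 4840 CPM. None of these arms passed the edgeR test, and the smallest adjusted p among them was 0.793.

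MiR-134-5p, a regulator of spine size, had ratios of 0.29 and -0.19. MiR-138-5p, found at synapses, had ratios of 1.28 and -0.11, and its other strand, miR-138-3p, had -2.28 and 0.30. MiR-124-3p, the most abundant neuron-specific miRNA, was lower in both pairs, at 174280 and 76853 CPM and at 28883 and 15217 CPM, with ratios of -1.18 and -0.92 that stayed below 0 under the 3 scalings. The groups overlapped, and against 1 and 6 h the ratios were 0.46 and -1.92. Without NT-1 the edgeR estimate turned from -1.12 (SE 0.85) to 0.25. The other strand, miR-124-5p, stood at 46.8 and 47.0 CPM and at 70.2 and 86.1 CPM.

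Of 39 arms of the neuronal and activity-linked list, 3 were 2-fold higher in both pairs, 1 was lower and 0 opposite, beside shares of 4.9%, 3.2% and 7.68% over all arms. The medians were 0.01 and 0.17, values that became -0.80 and -0.27 with the total count. In the miR-379/410 cluster, 48 arms expressed from the maternal chromosome, 2 were higher in both pairs, 1 lower and 9 opposite, again beside 4.9%, 3.2% and 7.68% over all arms, with medians of -0.0016 and 0.0023. MiR-376a-3p was an example of the opposite kind, at 1432 and 11355 CPM, then 1996 and 764 CPM. The 22 arms of the Meg3 and Rtl1 list, from the same imprinted region, had 0 that moved in both pairs and medians of 0.08 and 0.07. With the total count the medians of both lists fell below 0, as did those of all arms.

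Among the other families, the miR-30 5′ arms (5 members) were higher in all 5 cases in the second pair, with a median of 2.50, but in 2 of 5 in the first, with a median of -0.57. With the total count these numbers were 4 and 1. MiR-30d-5p was at 1963 and 3916 CPM, then at 450 and 2660 CPM, and miR-30e-5p moved in opposite ways, at 1571 and 372 CPM, then 98.9 and 709 CPM. In 3h-2 the largest tags of miR-30c, miR-30d and miR-30e 5′ arms were 24 nt long. The 10 arms of the miR-99/100 and miR-125 list had medians of 0.55 and 0.54, 1 of them higher in both pairs, and with the total count -0.13 and 0.09. Medians of the miR-29 list were 0.05 and 0.66, of miR-26 and miR-101 0.17 and -0.34, of miR-23/27/24 -0.34 and -0.11, of the miR-17-92 type clusters -0.53 and 0.45, of the miR-344 list 0 and 0.58, and of the Sfmbt2-type list -1.26 and -0.33. Over all lists together, 233 arms, edgeR called 0 and 13 had an unadjusted p under 0.05, beside 24 of all 469 arms (5.12%). DESeq2 called miR-206-3p and miR-344f-3p in the lists, beside 5 of all 469 arms (1.07%).

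Markers of other cell types were followed beside these results. Of 12 choroid plexus and ventricle markers 7 were measured, and their summed level was 7066 CPM in NT-1 and 14037 in 3h-1, and 2514 in NT-2 and 4414 in 3h-2, with miR-211 and miR-449c at 0 counts in all 4 libraries. In NT-1 the largest part was miR-448-3p (3709 CPM), followed by miR-34c-5p (2602 CPM), and in the other 3 libraries it was miR-34c-5p, so that the 2 arms moved in opposite ways within the sum. Of 9 blood cell markers 8 were measured, summing to 7325 and 4959 CPM in the first pair and to 1419 and 1089 CPM in the second. Within that list miR-144-3p was lower and miR-451a-5p higher in both pairs. The 3 vessel markers summed to 41947 and 165300 CPM, then to 18097 and 10009 CPM, almost all of it miR-143-3p. The 2 oligodendrocyte markers summed to 1816 and 16413 CPM, then to 9178 and 15852 CPM, most of it miR-219a-3p. The other marker, miR-338, had 80 and 53 counts, then 225 and 265. Of the 4 arms of this list, 2 were higher and 2 lower in the first pair, and 4 were higher in the second.

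Medians of the marker lists in the 2 pairs were -0.79 and 0.22 for choroid plexus, 0 and -0.16 for blood, 0.18 and -0.42 for vessels, -0.05 and 0.58 for oligodendrocytes, -0.77 and 0.19 for microglia and inflammation, 1.46 and 0.76 for muscle, -0.83 and 1.10 for epithelium and sensory cells, and -0.68 and 0.82 for hypothalamus and endocrine cells. The epithelial marker miR-141 was at 0 counts in all 4 libraries. No marker list had more than 1 arm that was higher in both pairs. The part of these cell types, and of tag length, in the changes of single arms was not tested.

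The balance of the 2 arms of a hairpin does not depend on library scaling, since both are read in the same library. It could be followed for 62 miRNAs with 10 counts of each arm in all 4 libraries. The ratio of 5′ to 3′ arm moved at least 2-fold in 41 of them in the first pair and in 27 in the second. It moved towards the 5′ arm in both pairs for 7 (11.3%), let-7i, miR-9, miR-30d, miR-124, miR-144, miR-212 and miR-485, and towards the 3′ arm for 3 (4.84%), miR-221, miR-328 and miR-582, with 7 in opposite ways. For miR-9 the log2 ratio of 5′ to 3′ arm was 4.58 in NT-1 and 6.31 in 3h-1, and 2.34 in NT-2 and 3.97 in 3h-2, a change of 1.72 and 1.64. The change of miR-9 was 1.90 and 1.65 with tags of 20 to 24 nt, and 1.91 and 1.70 when 1 and 6 h were the reference.

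For miR-485 the change was 2.82 and 2.12 against untreated and 1.64 and 1.09 against 1 and 6 h. Without the tag of 389 counts in 3h-1 the first time course gave 1.66 against untreated and 0.536 against 1 and 6 h. For miR-221 it was -1.41 and -2.98, and -2.83 and -2.18 against 1 and 6 h. Others were less steady. The shift of miR-212, 1.91 and 2.08, was -0.94 and 1.69 against 1 and 6 h. That of miR-30d in the first pair, 1.24, became -0.45 with tags of 20 to 24 nt, and that of miR-144, 4.03, became 0.86. The arm ratios of let-7i, miR-9, miR-485, miR-221 and miR-582 moved at least 2-fold the same way in both time courses and against both references, miR-485 only with that tag, and for the first 4 of these the arm that gained was one that moved in level in both pairs.

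**Figure D5:**
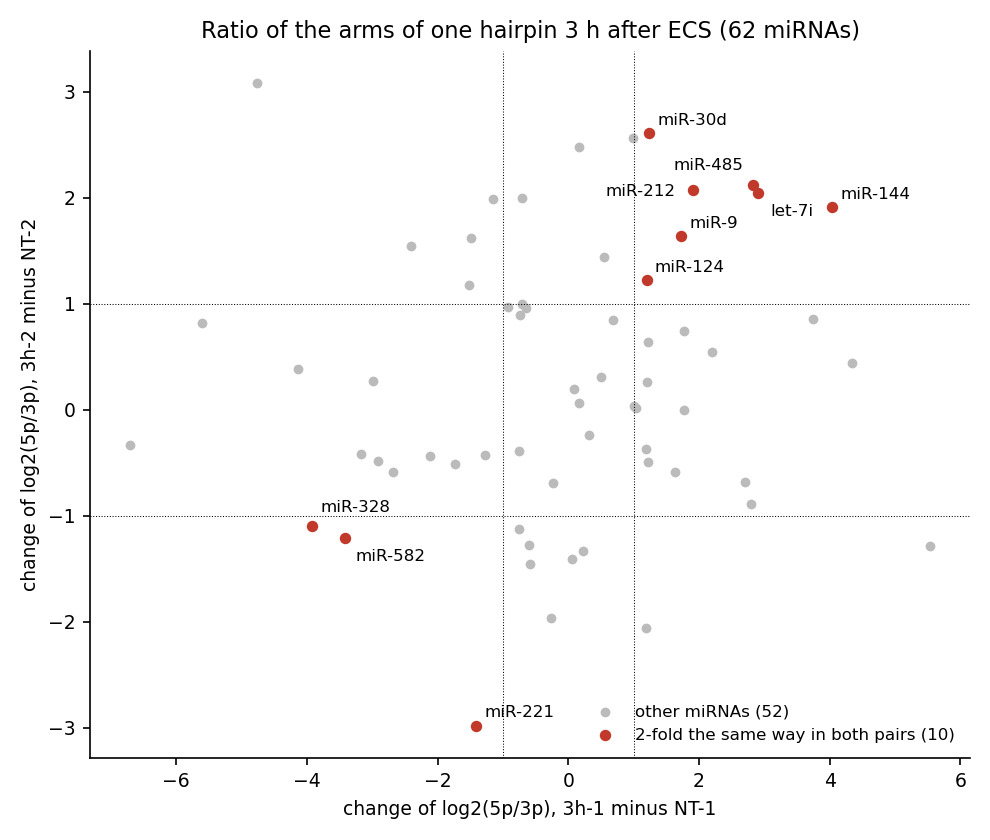
Change at 3 h in the log2 ratio of 5′ to 3′ arm in the first time course (x axis) against the second (y axis), 1 point per miRNA for 62 miRNAs, with lines at a 2-fold change. MiR-9, miR-485, let-7i and miR-212 lie in the upper right corner and miR-221 in the lower left.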

How the data were processed

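The authors sequenced gel-purified small RNA, ligated to adapters with T4 RNA ligase and amplified by PCR, on an Illumina Genome Analyzer IIx, and removed adapters with the miR-Intess pipeline. The deposited tables list every distinct insert of at least 18 nt with its raw read count, neither normalized nor aligned. The study describes a batch effect between its 2 time courses, and libraries were prepared from individual mice. Ligation and amplification favour some sequences, so levels of different miRNAs are not comparable as molecules.

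Tags were counted for an arm when the whole tag matched a GENCODE M21 hairpin (GRCm38) exactly, and tags that matched several miRNAs were split equally. Reads with 3′ additions were therefore lost. Arms with 10 or more counts in at least 2 of the 12 libraries were fitted in edgeR 4.0.16 (TMM, quasi-likelihood test, time and time course as terms, Benjamini-Hochberg over 469 arms, threshold 0.05) under R 4.3.3. DESeq2 1.42.0 was an alternative, as were other scalings, prior counts, folds, count minimums, tag lengths and leaving out each library. The procedure was tested on simulated data. Python 3.11.15 was used for counting and figures. Ratios within a pair used log2 CPM with a prior count of 2 and no test.

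The replicate number pairs the libraries, as the study gives it as the time course, although its list of library composition swaps the untreated libraries relative to the deposited files. Deviations of same-numbered libraries from their group means correlated in all 15 pairs of time points (mean r 0.519, lowest 0.308, NT with 3 h 0.570). No 2 of the 4 libraries were duplicates (lowest chi-square per degree of freedom 969.8).

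Arms were named by rule: the 12 most abundant, up to 10 higher and 10 lower of at least 100 CPM that moved in both pairs, up to 5 per pair that moved 4-fold in 1 pair and under 1.5-fold in the other, any call, the 5 smallest unadjusted p, and all arms of miR-124, miR-132, miR-212, miR-134 and miR-138. Arms, families and markers were chosen with earlier results of these data known. Precision is limited by depth for arms with few counts, at 1067558 to 4282006 miRNA reads in the 4 libraries. Abundant arms were imprecise too, as let-7f-5p, with 77644 to 934197 counts in these libraries, had an edgeR SE of 0.63. Coordinates are from GENCODE (GRCm38).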

Additional observations from a re-analysis of the deposited data

How the results depend on the processing

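With edgeR the number of arms called stayed at 0 without the replicate block (10 arms at an unadjusted p under 0.05 against 24 with it), in the 4 libraries alone (13), with DESeq2 size factors (27), with the total count (34), with a minimum of 10 counts in each of the 4 libraries (18), with tags that match 1 miRNA only (26), by the first 18 nt (27) and with tags of 20 to 24 nt (25). It was 2 without a count minimum, and DESeq2 called 5 with the replicate block and 2 without it. Leaving out each of the 12 libraries in turn gave 0 to 2 calls, and the 2, miR-1934-3p and miR-344f-3p, came without 3h-2. Against 1 and 6 h the number was 0 without the replicate block, with size factors, with the total count and with tags of 20 to 24 nt, 10 in DESeq2, and 0 to 9 on leaving out a library, with 9 without 3h-2 and 1, miR-206-3p, without 3h-1. Calls among the listed families and markers were 2 in DESeq2 (miR-206-3p and miR-344f-3p, added after the data were seen), 0 under the other alternatives and 0 to 1 on leaving out a library, miR-344f-3p without 3h-2.

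The 23 higher and 15 lower arms that moved in both pairs became 7 and 42 with the total count, 19 and 6 (25 in all) with a prior count of 5, 52 and 39 (91) at 1.5-fold, 3 and 0 at 4-fold, 15 and 26 without a count minimum, 5 and 16 (21) with 10 counts in each of the 4 libraries, 13 and 24 by the first 18 nt, 24 and 6 against 1 and 6 h, 12 and 5 (17) at 100 CPM or more, and 16 and 8 (24) with NT-1 and NT-2 exchanged. The last 3 were added after the data were seen. The 3 arms at 4-fold were miR-27b-5p, miR-329-3p and miR-669c-5p, all with few counts. In NT-1 and 3h-1 they had 0 and 4, 0 and 4, and 3 and 19 counts. In NT-2 and 3h-2 these were 5 and 26, 2 and 13, and 20 and 122. Size factors, a prior count of 0.5, tags that match 1 miRNA only and tags of 20 to 24 nt kept both counts within 1.5 times, although with 20 to 24 nt only 22 of the 38 arms were shared. Why the total count turns the balance towards lower arms follows from its downward shift of the ratios, given above, and for the others the cause was not tested.

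With the total count the edgeR log2 change of let-7f-5p (-0.40), miR-143-3p (-0.10), miR-101a-3p (-0.24), miR-124-5p (-0.47), miR-132-3p (-0.44), miR-132-5p (-0.29), miR-134-5p (-0.58) and miR-138-5p (-0.031) changed sign. With tags that match 1 miRNA only the edgeR log2 change of let-7f-5p (-0.072), miR-124-5p (-0.12), miR-132-3p (-0.08) and miR-134-5p (-0.21) changed sign. Without the replicate block the edgeR log2 change of miR-140-3p (0.0101) changed sign. With tags matched by their first 18 nt the edgeR log2 change of miR-124-5p (-0.13) and miR-134-5p (-0.13) changed sign. With tags of 20 to 24 nt the edgeR log2 change of miR-132-3p (-0.32) changed sign. On leaving out a library of the 2 groups, the estimates ranged from -0.42 to 0.52 for let-7f-5p, -2.60 to 0.25 for miR-124-3p, -0.62 to 1.49 for miR-143-3p, -0.075 to 2.09 for miR-128-3p, -0.40 to 1.62 for miR-101a-3p, -0.46 to 1.93 for miR-29a-3p, -0.14 to 3.17 for miR-192-5p, -0.75 to 0.49 for miR-140-3p, -4.82 to 0.67 for miR-448-3p, -0.58 to 2.65 for miR-320-3p, -0.43 to 5.97 for miR-344f-3p, -0.39 to 0.23 for miR-124-5p, -0.31 to 0.28 for miR-132-3p, -0.78 to 0.73 for miR-132-5p, -0.72 to 0.32 for miR-134-5p, -2.83 to 0.00901 for miR-138-3p, -0.16 to 0.95 for miR-138-5p and -0.41 to 1.85 for miR-212-5p. These ranges include 0, so the direction of each of these arms rested on 1 library. No estimate of let-7b-5p, let-7c-5p, let-7e-5p, let-7i-5p, miR-9-5p, miR-485-5p, miR-221-3p or miR-103-3p changed sign under the alternatives run. Depth limits arms near the minimum of 10 counts, and 271 of 469 arms had 10 counts in each of the 4 libraries. With 1 pair per time course, the spread of a pair cannot be told apart from a difference between time courses.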

Other observations

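Several arms began at another base than their RefSeq entry. In all 4 libraries most miR-140-3p reads started 1 nt later (26927 of 28886 in NT-1, 29737 of 32472 in 3h-1, 48490 of 68101 in NT-2 and 21831 of 28374 in 3h-2), which moves the seed from ACCACAG to CCACAGG. MiR-132-5p also started 1 nt later in most reads (289 of 429, 125 of 235, 356 of 486 and 529 of 726). For miR-101a-3p the most common start differed between the time courses and was the same in NT and 3 h. The RefSeq start made up 55.0% of its reads in NT-1 and 71.6% in 3h-1. In NT-2 and 3h-2 it made up 32.6% and 31.8%. Most reads started at the RefSeq base in NT-1 (32739 of 59493) and 3h-1 (90520 of 126439), and 1 nt before it in NT-2 (103124 of 153306) and 3h-2 (63098 of 92662), which gives the seed UACAGUA in place of ACAGUAC.

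Over the 271 arms with 10 counts in each of the 4 libraries, the GC content of the first 18 nt had a Spearman's rho of 0.028 with the log2 ratio of the first pair and 0.079 with that of the second, as a description across arms of the same libraries.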
